A study of Mus musculus with 16 samples.

Results

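The Vmp1 and Mir21 locus of the mouse is a stretch of chromosome 11, from 86385000 to 86505000 in the mm9 genome build, that holds the protein-coding gene Vmp1 and the microRNA gene Mir21 at about 86397600. Its acetylation on histone H3 lysine 27 (H3K27ac) was followed through dendritic cell development, in common dendritic cell progenitors (CDP) set against multipotent progenitors (MPP), in mature classical (cDC) and plasmacytoid (pDC) dendritic cells each set against CDP, and in pDC set against cDC. Each pair of cell types had a deposited list of regions called as differing, and every listed region that overlaps the window was taken. This gave 288 regions of 273958 in all. The list of CDP and MPP held 112 of its 60816 regions here, that of cDC and CDP 56 of 76865, that of pDC and CDP 64 of 69958, and that of pDC and cDC 56 of 66319. The locus was selected on these same signals, so its values are given as a description and no test is made of them.

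The cells were sorted and of the C57BL/6 strain, and 2 H3K27ac libraries were made of each of the 4 cell types. The labels give no sex, age, sort markers or culture, and do not say whether libraries of the same cell type stem from different animals. The antibody is credited to different suppliers in different label fields. Input and RNA samples (4 of each) were not used, so nothing below measures transcription, and marker genes of the cell types could not be checked on the lists without an mm9 annotation.

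H3K27ac is a mark of active promoters and enhancers, and broad clusters of acetylated regions often surround genes of cell identity. Vmp1 encodes a membrane protein of the endoplasmic reticulum that is needed to form autophagosomes, the vesicles that enclose cell contents for degradation. Mir21 encodes miR-21, a microRNA that represses, among others, the mRNA of Pdcd4, and in human cells its primary transcript is known to start from a promoter of its own within Vmp1. In the RefSeq annotation of GRCm38.p6 the mouse microRNA gene, named Mir21a there, lies inside the bounds of Vmp1 on the same strand, and the gene order is Rnft1, Rps6kb1, Tubd1, Vmp1, Ptrh2 and Cltc.

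The mature strands show what the microRNA of the locus is and which seed it carries. They are given from 5′ to 3′ from RefSeq (GRCm38.p6), with bases 2 to 8, the seed that pairs with target mRNAs, in capitals.
mmu-miR-21a-5p: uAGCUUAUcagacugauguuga
mmu-miR-21a-3p: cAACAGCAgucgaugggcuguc
mmu-miR-21c: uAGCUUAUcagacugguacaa
Of the 1738 mature microRNAs in the table, 2 share the seed of miR-21a-5p, which are miR-21a-5p itself and miR-21c, encoded on mouse chromosome 8. Counted from 1 at the 5′ end over the 21 shared positions, they differ by A16G, G18A, U19C, U20A and G21A. The hairpin from which both arms of miR-21a are cut has 92 bases, with the arms in capitals.
Mir21a hairpin: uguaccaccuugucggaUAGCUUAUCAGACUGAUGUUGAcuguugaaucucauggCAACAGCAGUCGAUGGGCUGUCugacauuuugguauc

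The other end of the gene is represented by the most upstream of 3 Vmp1 promoters in the RefSeq table (GRCm38.p6, minus strand), shown because the acetylation at the far end of the locus lies at about that distance from Mir21 in mm9. In that build the promoter lies 99.6 kb from the Mir21a hairpin.
Vmp1 promoter: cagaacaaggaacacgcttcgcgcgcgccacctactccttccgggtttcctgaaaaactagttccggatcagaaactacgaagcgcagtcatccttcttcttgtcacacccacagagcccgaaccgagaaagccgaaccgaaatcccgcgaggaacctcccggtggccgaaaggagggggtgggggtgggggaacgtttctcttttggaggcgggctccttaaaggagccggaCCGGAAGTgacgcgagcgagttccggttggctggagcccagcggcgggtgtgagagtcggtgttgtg
Its GC content is 60.3%, against a median of 52.7% over 32851 promoters, and 263 of its 300 bases are shared with the promoter window of Ptrh2, a gene that starts in the opposite direction. The capitals mark CCGGAAGT, a form of the ETS factor motif that was picked after it had been seen in this sequence, and 3.89% of all promoters hold it on either strand. GAGGAAGT, TGANTCA and TATAAA were also searched on both strands and are not in this window. They are in 3.20%, 7.81% and 13.6% of all promoters. The promoter could not be placed on mm9, so no listed region is assigned to it.

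The deposited signals are whole numbers, and entries taken to be the same library differed between lists by a nearly constant factor, of 0.88 to 1.24. Scaling for each library and each list was inferred from this, so each comparison stays within 1 list. The depth of sequencing is unknown. Libraries of a cell type are named by their place in the list, first or second, since no replicate number goes with the values. Over a whole list the median log2 difference of the second-listed from the first-listed cDC library was 0.50, which makes cDC the cell type with the widest spread here. Setting the autosomal totals of the 4 libraries of a list equal moves the median log2 ratio of all its regions by 0.14 for CDP over MPP, 0.08 for cDC over CDP, -0.30 for pDC over CDP and -0.46 for pDC over cDC. Changes are therefore also given relative to the list median. That median is over single regions, whereas ratios of the locus and its blocks are of sums, in which dense regions weigh most. The median over single regions of the locus was 0.06 for CDP over MPP and -1.56 for cDC over CDP. It was -1.10 for pDC over CDP and 0.21 for pDC over cDC. The list medians were -0.12, -0.17, 0.04 and 0.20 in the same order. CDP libraries are shared by 3 of the 4 lists, cDC and pDC libraries by 2 each, so the comparisons are not independent of one another.

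Summed over the locus, acetylation was slightly higher in CDP than in MPP, and much lower in both mature cell types than in CDP. The 112 regions of the first list had a summed signal of 159141 and 161156 in CDP compared with 150931 and 128509 in MPP. Both CDP libraries lay above both MPP libraries, by 1.15-fold in the means. The log2 ratio was 0.20, or 0.32 above the median of the list, with an SD between libraries of 0.01 in CDP and 0.16 in MPP on that scale. In the list of cDC and CDP the sums were 60151 and 101729 in cDC compared with 195240 and 189940 in CDP, a 2.38-fold lower mean in cDC. The log2 ratio of -1.25 was -1.08 relative to the list median, with an SD of 0.54 in cDC and 0.03 in CDP. In the list of pDC and CDP the sums were 55732 and 54728 in pDC compared with 175578 and 174607 in CDP, a 3.17-fold lower mean in pDC. Here the log2 ratio was -1.66, or -1.70 relative to the list median, with an SD of 0.02 in pDC and 0.01 in CDP. The groups of libraries did not overlap in either of these lists.

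Directly compared, pDC and cDC overlapped in the sum over the regions listed for that pair. These regions cover 41.85 kb of the locus, compared with 84.4 to 89.5 kb in the other lists. The sums were 60807 and 57962 in pDC compared with 59498 and 98413 in cDC. The log2 ratio was -0.41, or -0.62 relative to the list median, and it rests on the second-listed cDC library, since it was -0.0028 without that library and -0.73 without the first-listed one. With equal autosomal totals the ratio was -0.85 and the libraries did not overlap.

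**Figure D1:**
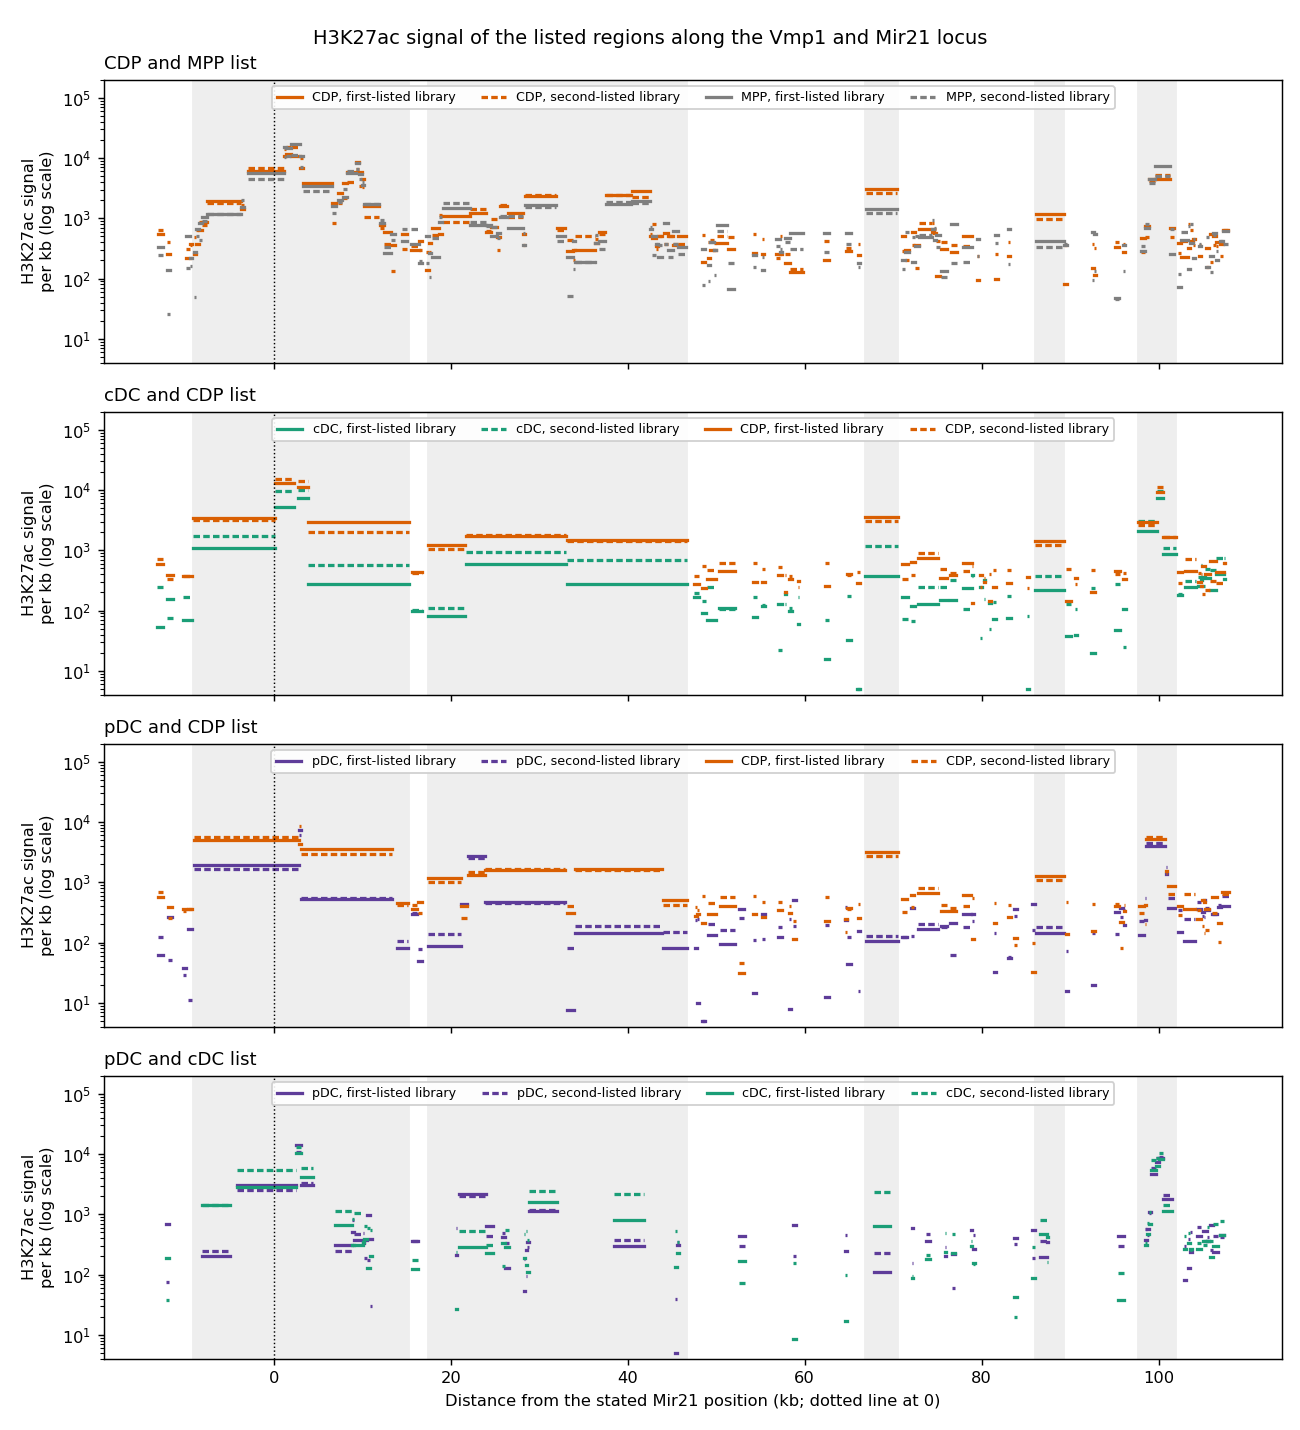
H3K27ac signal per kb (log scale) of each listed region along the locus, by distance in kb from the stated Mir21 position, with 1 panel per list and 1 line per library; values under 5 per kb are drawn at 5, and grey shading marks the 6 blocks. CDP lines lie above cDC and pDC lines along most of the locus, and the lines come together at about 100 kb.

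A region was counted as changed when the means differed at least 2-fold, after a pseudocount of 1 was added to each, and both libraries of one cell type lay above both of the other. Between CDP and MPP, 13 of 112 regions were higher in CDP, where 10.9% of the whole list is, and 4 were higher in MPP, where 14% is. In the cDC and CDP list, 0 of 56 regions were higher in cDC, where 11% of the list is, and 36 were higher in CDP, where 21.9% is. Of the 64 regions in the pDC and CDP list, 5 were higher in pDC, where 26.2% of the list is, and 35 were higher in CDP, where 21.4% is. Between pDC and cDC, 10 of 56 regions were higher in pDC, where 28% of the list is, and 8 were higher in cDC, where 12.9% is. These contrasts chose the locus, so the shares of the whole lists are printed beside the counts and nothing is read from them.

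In the authors' deposited table, the direction was towards CDP in 59 of 112 regions of the CDP and MPP list (45.7% of the list), towards cDC in 7 of 56 against CDP (42.9% of the list), towards pDC in 15 of 64 against CDP (50.2% of the list), and towards pDC in 31 of 56 against cDC (57% of the list). Along the locus this direction switched 80 times between CDP and MPP, 12 times between cDC and CDP, 24 times between pDC and CDP and 31 times between pDC and cDC. The median region length was 400 bases for CDP and MPP, 550 for cDC and CDP, 450 for pDC and CDP and 350 for pDC and cDC. The longest regions had 4100, 13650, 11900 and 6700 bases in the same order of lists.

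To compare the same places over the 4 lists, regions with at least 1000 units of signal per kb in their densest library were joined wherever they overlapped. The threshold was chosen after its effect had been seen. This gave 6 blocks, which together cover 54.1% of the window. The Mir21 block, from 86388451 to 86412850, is 24.4 kb long and contains the stated Mir21 position. The second block runs from 86415001 to 86430650, and the third from 86430701 to 86444350. Farther away are the fourth block, from 86464451 to 86468150, and the fifth block, from 86483651 to 86486900. The sixth block, from 86495301 to 86499550, lies 97.7 to 102 kb from the stated Mir21 position in mm9. Each listed region was counted in the block that holds more than 50% of its length. The lists do not cover the blocks equally. In the pDC and cDC list the regions cover only 3.8 kb of the third block, 1.75 kb of the fourth and 0.9 kb of the fifth.

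**Figure D2:**
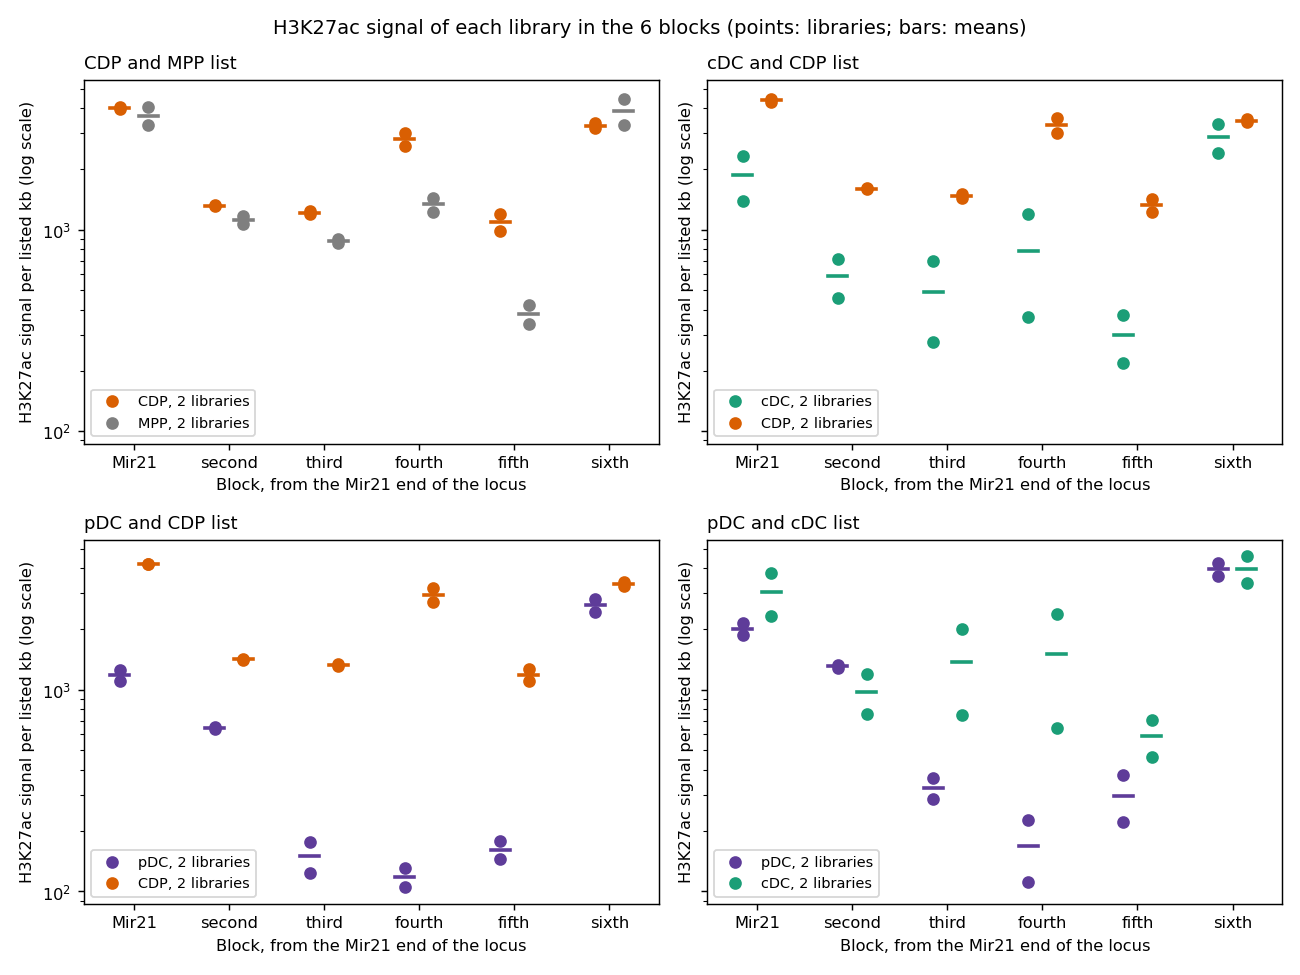
H3K27ac signal per listed kb (log scale) in the 6 blocks, with 1 point per library and a bar at the mean of the 2 libraries, for each of the 4 lists. The fourth and the fifth block are higher in CDP than in every other cell type, and the means of the sixth differ by at most 1.27-fold as deposited.

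The Mir21 block held more than 50% of the locus signal in all but 1 of the library entries, the exception being the second-listed pDC library in the list with CDP at 47.9%. Between CDP and MPP its sums overlapped, at 89255 and 91911 in CDP and at 91050 and 74091 in MPP, a log2 ratio of 0.13. With equal autosomal totals it was 1.21-fold higher in CDP and the libraries no longer overlapped, whereas without the second-listed MPP library the log2 ratio was -0.0074. Its segments differed in direction. The region over the stated Mir21 position, from 86394651 to 86398750, had 25445 and 27708 in CDP compared with 23298 and 18196 in MPP. It was 1.28-fold higher in CDP without overlap. From 86390051 to 86393950 the signal was 1.61-fold higher in CDP without overlap. From 86407851 to 86409550 it was 1.31-fold lower in CDP, without overlap only as deposited. In cDC the sums of the block were 33433 and 55859, against 106874 and 103525 in CDP, a 2.36-fold lower mean in cDC. In pDC they were 29564 and 26199, against 98891 and 98839 in CDP, a 3.55-fold lower mean in pDC. Between the mature cell types they were 33977 and 29529 in pDC, against 37002 and 59989 in cDC, without overlap. The mean was 1.53-fold lower in pDC. That log2 ratio of -0.61 was -1.05 with equal autosomal totals and -0.22 without the second-listed cDC library. The stated Mir21 position falls in the region from 86388601 to 86400500 of the pDC and CDP list, which had 22845 and 19459 in pDC compared with 59962 and 66784 in CDP, 3.0-fold lower in pDC. That region had the largest signal, summed over the 4 libraries, of all 69958 in its list. A sum grows with length, and the region is 11.9 kb long where the median of the list is 600 bases.

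Within the Mir21 block the loss of signal was uneven. In cDC the stretch on the far side, from 86401451 to 86412850, had 3089 and 6393, against 33465 and 22990 in CDP. It was 5.95-fold lower in cDC, and in the authors' deposited table its p-value ranks 4 of 76865. The stretch that contains the stated Mir21 position near its end, from 86388451 to 86397750, was 2.33-fold lower in cDC. It had 10254 and 16293 in cDC compared with 32188 and 29748 in CDP. Between these lay 2 denser segments. The first, from 86397751 to 86399950, had 11555 and 21569 in cDC compared with 28411 and 34216 in CDP, 1.89-fold lower in cDC. The next segment, from 86400301 to 86401450, was 1.46-fold lower, with 8535 and 11604 in cDC compared with 12810 and 16571 in CDP.

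In the list of pDC and CDP, 1 region covers both the stretch with the stated Mir21 position and most of the denser segments, so these cannot be compared there. From 86400651 to 86411000 the signal was 5501 and 5693 in pDC compared with 37712 and 30206 in CDP, 6.07-fold lower in pDC. The short segment just before it, from 86400501 to 86400650, overlapped between the cell types, with 1115 and 916 in pDC and 641 and 1315 in CDP. A flank on the other side separated the mature cell types. From 86389451 to 86392650 the signal was 662 and 787 in pDC compared with 4620 and 4511 in cDC, 6.29-fold lower in pDC. The adjoining region from 86393451 to 86400150 contains the stated Mir21 position. It overlapped as deposited, at 20219 and 17163 in pDC and 19378 and 36478 in cDC. With equal autosomal totals both pDC libraries of that region lay below both cDC libraries.

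The second block contained the clearest neighbouring segments of opposite direction. From 86419551 to 86421450 the signal was 5178 and 4813 in pDC compared with 2481 and 2850 in CDP, 1.87-fold higher in pDC. Both of its long neighbours went the other way, past a weak segment from 86418751 to 86419500 with 333 and 318 in pDC and 298 and 192 in CDP. From 86415051 to 86418750 the signal was 329 and 518 in pDC compared with 4288 and 3754 in CDP, 9.47-fold lower in pDC. From 86421451 to 86430550 it was 4230 and 4188 in pDC compared with 14818 and 15006 in CDP, 3.54-fold lower in pDC. The log2 ratio of the higher segment was 0.91 as deposited and 0.61 with equal autosomal totals, and the libraries did not overlap under either.

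The matching segment of the pDC and cDC list, from 86418551 to 86421600, differed more. It had 6614 and 6264 in pDC compared with 870 and 1619 in cDC, 5.17-fold higher in pDC as deposited, with a log2 ratio of 2.37 that was 1.95 with equal autosomal totals. Farther along, from 86426501 to 86429650, the direction turned, with 3623 and 3662 in pDC compared with 5017 and 7589 in cDC, 1.73-fold lower in pDC. These segments partly offset each other in the sums over the second block, which were 11046 and 10740 in pDC and 6364 and 9987 in cDC. As deposited the block was 1.33-fold higher in pDC without overlap. The log2 ratio of the block, 0.41 as deposited, turned to -0.031 with equal autosomal totals, where the libraries overlapped. In the list of cDC and CDP the segment lay inside a single region from 86419351 to 86430650 that was 2.29-fold lower in cDC, at 6733 and 10659 in cDC and 19729 and 20094 in CDP. The region before it, from 86415001 to 86419200, was 11.7-fold lower in cDC, at 335 and 472 in cDC and 5089 and 4388 in CDP.

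Overlapping segments already differed in direction between CDP and MPP. From 86419751 to 86421550 the signal was 2227 and 2609 in CDP compared with 1417 and 1589 in MPP, 1.61-fold higher in CDP. From 86416701 to 86419750 it was 3386 and 2688 in CDP compared with 4562 and 5516 in MPP, 1.66-fold lower in CDP. The first of these segments was thus higher in CDP than in MPP and higher in pDC than in CDP, each within its own list. The second was lower in CDP than in MPP and overlaps the region from 86415051 that was lower in pDC than in CDP. It also contains the weak segment from 86418751 to 86419500 and the start of the region from 86419551, both of which were higher in pDC than in CDP.

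**Figure D3:**
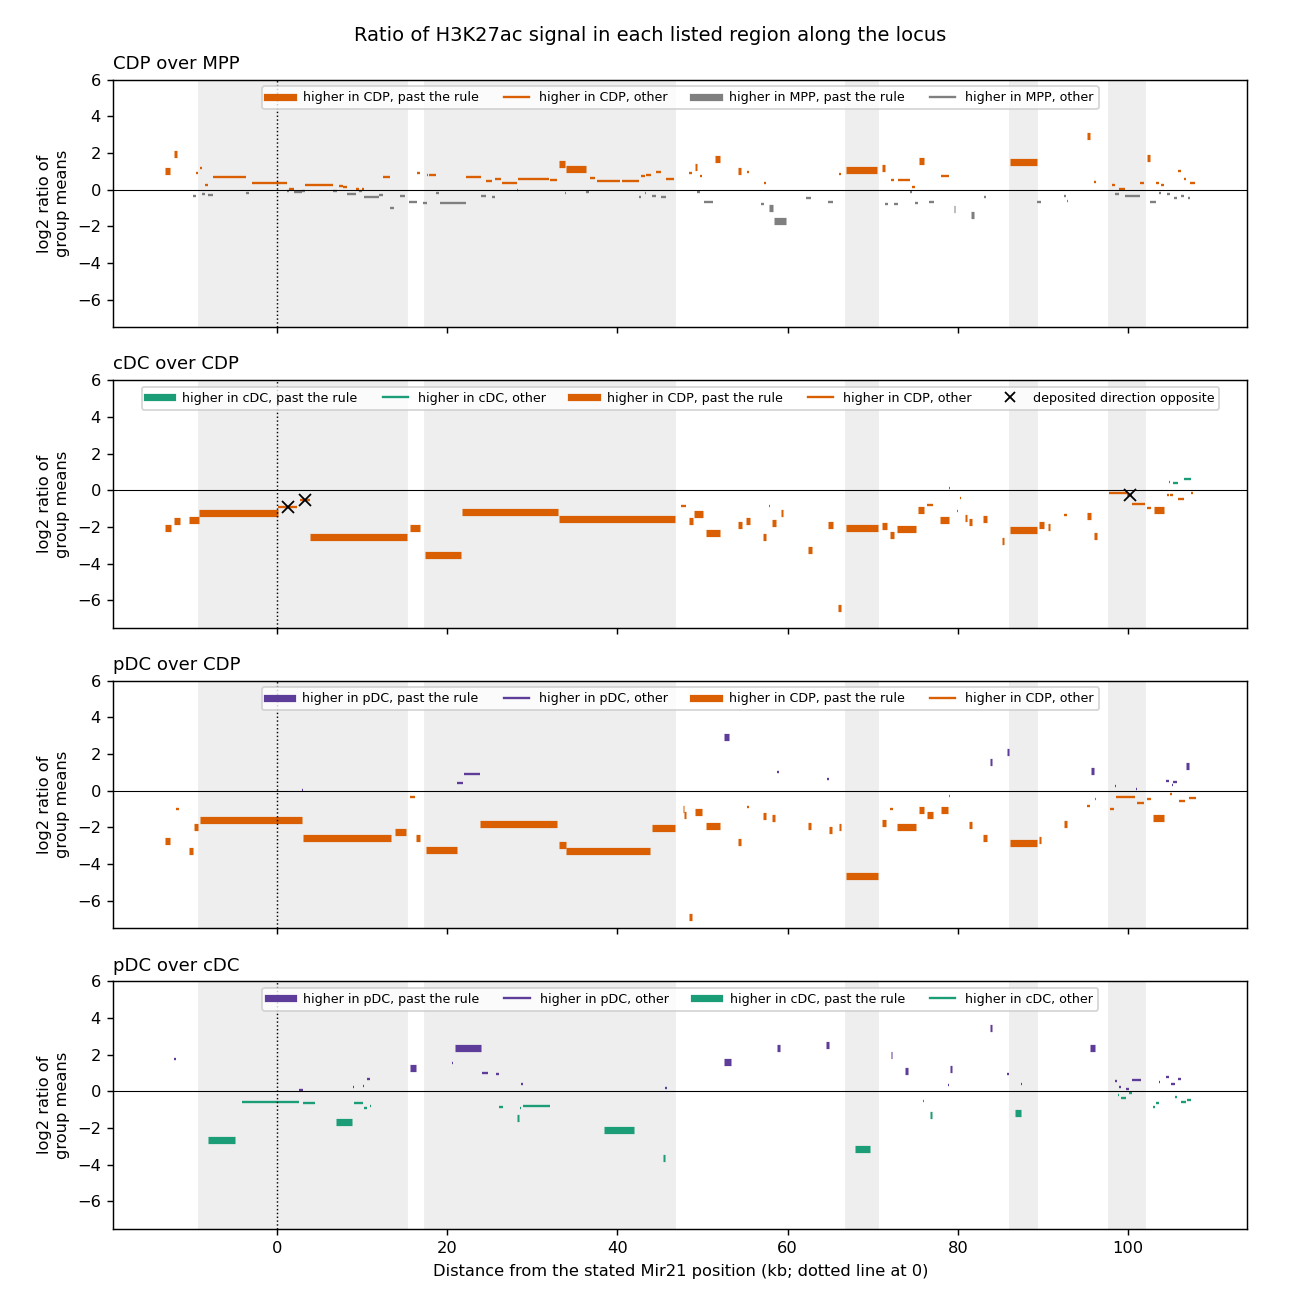
Log2 ratio of group means in each listed region along the locus, by distance in kb from the stated Mir21 position, with 1 panel per comparison; thick bars mark regions with at least a 2-fold difference and no overlap of libraries, and crosses mark regions whose deposited direction is opposite to their signals. At about 22 to 24 kb the pDC ratio over CDP is above 0 between long stretches below 0.

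In sums over blocks, the third block separated the mature cell types by more than the blocks nearer to Mir21. Only 3.8 kb of it is listed for that pair. Single segments of the nearer blocks differed by more than its main segment. The log2 ratio of pDC over cDC was -2.65 from 86389451 to 86392650 and 2.37 from 86418551 to 86421600, against -2.12 in that main segment. It was 1.38-fold higher in CDP than in MPP, with 15802 and 15289 in CDP compared with 11533 and 11016 in MPP. In cDC it had 3802 and 9576, against 20432 and 19569 in CDP, 2.99-fold lower in cDC. In pDC it had 1643 and 2349, against 17931 and 17410 in CDP, 8.85-fold lower in pDC. Its main segment in the direct comparison, from 86436051 to 86439500, had 1035 and 1309 in pDC compared with 2786 and 7436 in cDC, 4.36-fold lower in pDC. The second-listed cDC library was 2.52 times the first-listed one in this block, and the log2 ratio of cDC over CDP, -1.58, was -1.06 without the first-listed and -2.40 without the second-listed cDC library. That of pDC over cDC, -2.07, was -1.20 without the second-listed one.

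The fourth and the fifth block, isolated peaks of 3.7 and 3.25 kb at about 67 and 86 kb from Mir21, were highest in CDP in every list that holds CDP. The fourth had 10843 and 9362 in CDP compared with 5179 and 4409 in MPP, 2.11-fold higher in CDP. In cDC the fourth block had 1369 and 4427 against 13198 and 11146 in CDP, 4.20-fold lower in cDC. In pDC it had 383 and 475 against 11627 and 9948 in CDP, 25.1-fold lower in pDC. Between the mature cell types, its listed core from 86465501 to 86467250 had 194 and 395 in pDC compared with 1131 and 4147 in cDC, 8.93-fold lower in pDC. The cDC libraries differed from each other by 3.23-fold in this block in the list with CDP. The log2 ratio of cDC over CDP, -2.07, was therefore -1.46 without the first-listed and -3.15 without the second-listed cDC library, and that of pDC over cDC, -3.16, was -3.82 and -1.94 without the same libraries.

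The fifth block had 3821 and 3154 in CDP compared with 1346 and 1088 in MPP, 2.87-fold higher in CDP. In cDC it had 712 and 1229 against 4613 and 3962 in CDP, 4.42-fold lower in cDC. In pDC it had 463 and 570 against 4060 and 3515 in CDP, 7.33-fold lower in pDC. The libraries of the 2 cell types did not overlap in any of these. Relative to the list medians, the log2 ratios of the fourth block were 1.20 for CDP over MPP, -1.90 for cDC over CDP and -4.69 for pDC over CDP, and those of the fifth block were 1.64, -1.97 and -2.91 for the same comparisons.

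The sixth block, at the end of the locus away from Mir21, differed by at most 1.27-fold in the means as deposited. It had 11777 and 12440 in CDP and 16376 and 12156 in MPP, which overlapped. In cDC it had 10158 and 14169, against 14453 and 14947 in CDP, 1.21-fold lower in cDC. In pDC it had 9249 and 10695, against 12391 and 13036 in CDP, 1.27-fold lower in pDC. Between the mature cell types it had 11007 and 12806 in pDC and 10127 and 13729 in cDC, which overlapped. With equal autosomal totals it was 1.58-fold lower in pDC than in CDP and 1.39-fold lower in pDC than in cDC, and the pDC and cDC libraries no longer overlapped. Relative to the list medians, its log2 ratios were -0.12 for CDP over MPP, -0.10 for cDC over CDP, -0.39 for pDC over CDP and -0.21 for pDC over cDC. None of its listed regions passed the rule of a 2-fold difference without overlap in any list, although 2 in pDC and CDP did with equal autosomal totals.

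The share of a library's own locus signal does not depend on how that library was scaled, and it moved towards the sixth block in the mature cells. The sixth block held 16.9% and 13.9% of the locus signal in cDC compared with 7.40% and 7.87% in CDP in the same list. In pDC it held 16.6% and 19.5%, against 7.06% and 7.47% in CDP. In CDP its share was 7.40% and 7.72%, against 10.8% and 9.46% in MPP. The fourth block went the other way, with 0.687% and 0.868% of the locus signal in pDC compared with 6.62% and 5.70% in CDP, with 2.28% and 4.35% in cDC compared with 6.76% and 5.87% in CDP, and with 6.81% and 5.81% in CDP compared with 3.43% and 3.43% in MPP. The second block held 18.1% and 18.0% in pDC compared with 12.5% and 12.5% in CDP. The Mir21 block itself kept about the same share in cDC, with 55.6% and 54.9%, as in CDP, with 54.7% and 54.5%, and a lower one in pDC, with 53.0% and 47.9%, than in CDP, with 56.3% and 56.6%.

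**Figure D4:**
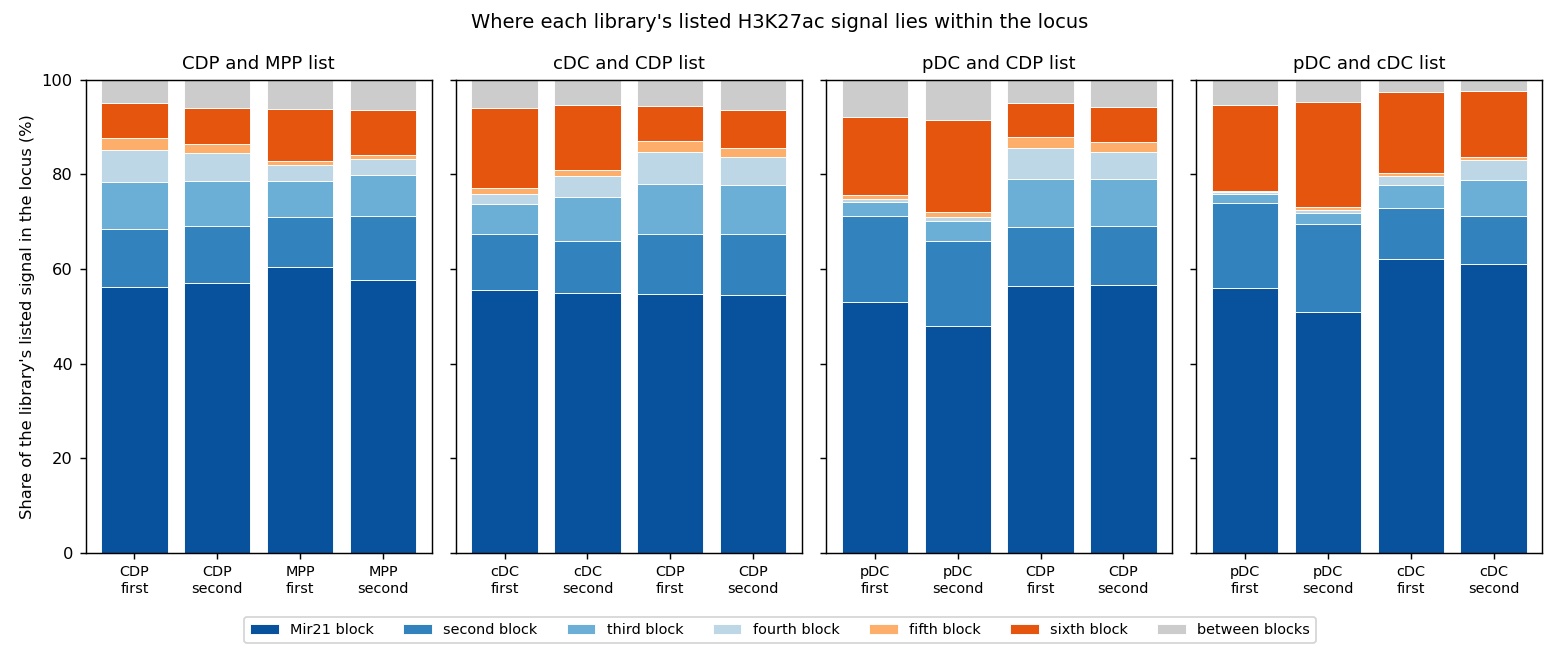
Share (%) of each library's listed signal in the locus that falls in each of the 6 blocks or between them, with 1 bar per library and 1 panel per list. In the lists that hold CDP, the sixth block takes 13.9% to 19.5% in the cDC and pDC libraries and 7.06% to 7.87% in the CDP libraries. In the pDC and cDC list, whose regions cover only 41.85 kb, it takes 14.0% to 22.1%.

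Between the blocks the signal was low and the mature cell types again lay below CDP, with sums of 3609 and 5338 in cDC compared with 10852 and 12309 in CDP, and of 4360 and 4603 in pDC compared with 8793 and 10057 in CDP. All 5 regions that were at least 2-fold higher in pDC than in CDP without overlap lay between the blocks, and all were weak. The one with the largest ratio, from 86450151 to 86450750, had 214 and 156 in pDC compared with 19 and 28 in CDP, 7.59-fold higher in pDC. The segment that overlaps it in the direct comparison, from 86450151 to 86450900, had 326 and 226 in pDC compared with 126 and 54 in cDC, 3.04-fold higher in pDC. In the direct comparison 9 of the 10 regions that passed the rule towards pDC lay between the blocks, and the remaining one was the segment of the second block described above. The largest ratio among them, from 86481301 to 86481650, was 10.8-fold, with 144 and 113 in pDC compared with 15 and 7 in cDC. The widest relative losses were at regions listed at or near 0. From 86446051 to 86446350 both pDC libraries were listed at 0, against 63 and 175 in CDP, and from 86463551 to 86463900 the cDC libraries were listed at 0 and 1, against 102 and 151 in CDP.

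Between CDP and MPP the regions past the rule were likewise mostly short and weak, with 9 of the 13 higher in CDP and all 4 higher in MPP between the blocks. The largest ratio towards CDP, from 86492701 to 86493100, was 7.67-fold, with 133 and 164 in CDP compared with 19 and 18 in MPP. The largest towards MPP, from 86456001 to 86457400, was 3.27-fold lower in CDP, with 178 and 204 in CDP compared with 814 and 438 in MPP.

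In 3 of the 56 regions of the cDC and CDP list the deposited direction was towards cDC although the mean signal was higher in CDP. These are the segments from 86397751 to 86399950 and from 86400301 to 86401450 in the Mir21 block, described above, and the segment from 86497451 to 86498050 in the sixth, which had 4391 and 5826 in cDC and 5535 and 6676 in CDP. All 3 have a −log10 p of 0.30 in the authors' deposited table. In that list 393 of 76865 regions are of this kind, and in the other 3 lists none is.

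At the borders of the window the signals were low. The first pDC and CDP region inside, from 86384501 to 86385050, had 34 and 69 in pDC compared with 316 and 383 in CDP, and the last one outside before it, from 86383101 to 86384300, had 105 and 110 in pDC compared with 504 and 621 in CDP. At the other border the last region inside, from 86504751 to 86505550, had 323 and 466 in pDC and 545 and 504 in CDP, and the next one outside, from 86505601 to 86505800, had 142 and 130 in pDC and 89 and 132 in CDP. Widening the window by 25 kb on each side changed the log2 ratio of pDC over CDP to -1.18, that of cDC over CDP to -1.19 and that of pDC over cDC to -0.026.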

How the data were processed

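H3K27ac was profiled by ChIP-seq in 8 libraries from sorted MPP, CDP, cDC and pDC. Per the submitters' processing notes, reads were aligned with BWA 0.6.1 to mm9. THOR, named in the series title, calls regions that differ between groups of replicates. The 4 deposited lists give, per region, bounds, a direction, the signals of 2 libraries of each cell type and −log10 of a p-value. The deposited signals are whole numbers whose scaling is not documented in the sources used. That they were scaled per library and list was inferred from the check below. They were not taken as read counts, so the depth, and any interval that needs it, is unknown. The unnamed final column was left out.

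List names gave the order of the signals. As a check, regions with the same bounds in 2 lists were compared: 10 pairs of entries taken to be the same library differed by a nearly constant factor (largest log2 SD 0.050), whereas the log2 SD of the 86 other pairs began at 0.36. MPP occurs in 1 list, so its own entries could not be matched. The other pair of that list matched the CDP entries of the other lists, which leaves the remaining pair for the MPP of its name.

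Ratios are of group means with a pseudocount of 1, or of summed signals without one. Regions count whole where they cross the window. An exact two-sided permutation test of 2 against 2 cannot go below 0.333, and none was run. The locus, its members and the lists were chosen with earlier results of these data known. A naming rule took, per list, the region over Mir21, the largest ratio and signal in each direction, and regions opposite to both neighbours. It gave 110 regions and 49 runs of 1 direction, and the text gives a selection made after their values were seen. Regions of the second to sixth blocks and the segments adjoining named ones were also chosen so. The list of autophagy and miR-21 target genes was not used, since it needs an mm9 annotation. The measures were tested on simulated data. In these the spread between libraries was smaller than that of cDC over the locus as deposited, and low base signals were raised to a minimum. The check therefore does not cover spread of that size or regions near 0. Coordinates are 1-based. Python 3.11.15 was used with pandas 2.3.3, numpy 2.4.6 and, for figures, matplotlib 3.10.9. Alternatives were equal autosomal totals over listed regions (which can remove part of a net difference), pseudocounts of 0.5 and 5, folds of 1.5 and 3, a −log10 p of at least 10, other treatments of the window's borders, and leaving out each library.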

Additional observations from a re-analysis of the deposited data

How the results depend on the processing

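The log2 ratio of pDC over CDP for the locus, -1.66, was -1.97 with equal autosomal totals, -1.18 in the widened window and -1.74 with a −log10 p of at least 10; the cause was not tested. Leaving out each library gave 0.086 to 0.32 for CDP over MPP, -1.68 to -0.92 for cDC over CDP, -1.68 to -1.65 for pDC over CDP and -0.73 to -0.0028 for pDC over cDC. With a fold of at least 1.5, 29 regions were higher in CDP and 11 in MPP in that list; with 3, the counts were 4 and 1. In the pDC and CDP list, 2 regions were higher in pDC with a fold of 3, and in the pDC and cDC list 5 were higher in cDC. Equal totals gave 2 higher in MPP, 3 higher in pDC than in CDP and 15 higher in cDC than in pDC. A pseudocount of 5 left 2 higher in MPP. A −log10 p of at least 10 left 2 higher in pDC than in CDP. Leaving out each library, an alternative for counts and blocks that was added after seeing the data, gave 12 to 24 regions higher in CDP and 4 to 11 higher in MPP in that list. It gave 0 to 1 higher in cDC and 32 to 41 higher in CDP in the cDC and CDP list, 4 to 8 higher in pDC and 34 to 36 higher in CDP in the pDC and CDP list, and 12 to 17 higher in pDC and 5 to 16 higher in cDC in the pDC and cDC list. In these counts non-overlap was judged on only 1 library of the reduced cell type, so it was easier to meet than in the main counts. Counts that moved over 1.5 times were 24 higher in CDP without the first-listed MPP library, 11 and 10 higher in MPP without the second-listed MPP or CDP library, 1 higher in cDC without the first-listed cDC or second-listed CDP library, 8 higher in pDC than in CDP without the first-listed CDP library, 17 higher in pDC and 5 in cDC without the second-listed cDC library, and 16 in cDC without the first-listed one. The second block turned from 0.41 to -0.031 for pDC over cDC with equal totals. Of 110 regions given by the naming rule, 14 change sign with equal totals. Joining regions at 700 or 1500 per kb gave 13 or 5 blocks in place of 6. No paired analysis was possible because the signals carry no replicate number. Unknown depth limits how well low signals are known, and with 2 libraries per cell type the spread is known poorly.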
